A study of Oryza sativa Indica Group with 36 samples.

Results

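The third day of recovery in the rice line DC907 was compared between 2 lengths of cold. BT3H3 stands for plants held at 8 ℃ for 3 days and then kept at room temperature for 3 days, and BT1H3 for plants held at 8 ℃ for 1 day and then kept at room temperature for 3 days. The groups were taken by their labels and hold 3 libraries each, so that 6 of the 36 libraries of the series enter the comparison. DC907 is a near-isogenic line (NIL) that carries a cold-tolerance locus from wild rice in the background of the indica cultivar 9311, and both groups carry the same locus. RNA came from stems and leaves of hydroponically grown seedlings. The labels do not say whether a library was made from 1 plant or from several. The plants of BT3H3 were collected 6 days and those of BT1H3 4 days after the start of the cold, so that the length of the cold and the time since its start cannot be told apart.

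Rice is a plant of warm climates, and chilling stiffens its membranes, slows its enzymes, lowers photosynthesis and leads to reactive oxygen species. During cold, transcription factors of the MYB, NAC and AP2 families, the hormone abscisic acid, sugars, polyamines and enzymes that remove peroxides are known parts of the response. When the plants are warmed again, these programmes are wound down and growth restarts. A comparison of 2 cold lengths on the same recovery day asks which transcripts still differed once both sets of plants had been warm for the same time.

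The 6 libraries held 16084160 to 18789555 counts on genes, within the range of 10176660 to 18789555 over all 36. Between 20920 and 21558 genes of each BT1H3 library and between 20079 and 21027 of each BT3H3 library reached an FPKM (fragments scaled to transcript length and library size) of at least 1. Replicates of a group differed from each other by more than sampling noise, with r = 0.900 to 0.966 between replicates in log2 CPM (counts scaled to a library total of 1000000), across genes. At 78 genes that separated 9311 from DC907 in other libraries of the series, each of the 6 libraries lay on the DC907 side at 96.2% to 97.4%. The identifiers could not be paired with positions or names in the reference table used here, so that stem and leaf markers were not checked, and products are given only where the study's text names them. With 3 libraries against 3, p-values set the difference between the groups against the spread between these libraries, which edgeR estimates with information shared across genes.

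Recovery after 3 days of cold left 2296 of 22615 genes tested at a different level than recovery after 1 day, which is 10.2% of them. Of these DEGs (differentially expressed genes), 1110 were higher in BT3H3 (4.91%) and 1186 lower (5.24%). Genes called lower moved further, with a median log2 fold change of -1.54 against 0.96 for those called higher, while the median over all genes tested was 0.01. A change of at least 2-fold was found for 522 of the DEGs called higher and 920 of those called lower, together 1442 (6.38% of the genes tested). Past a log2 fold change of 3 the counts were 39 higher and 177 lower. The DEGs of the 2 directions also differed in level. Of 4 groups of genes by mean FPKM, the highest held 580 called higher and 311 called lower, and the lowest held 77 and 225. The part of level in the sizes of the changes was not tested. DEGs were called at an adjusted p under 0.05 by the quasi-likelihood test of edgeR, with p-values adjusted by the Benjamini-Hochberg method over all genes tested, and 6815 genes had an unadjusted p under 0.05.

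**Figure D1:**
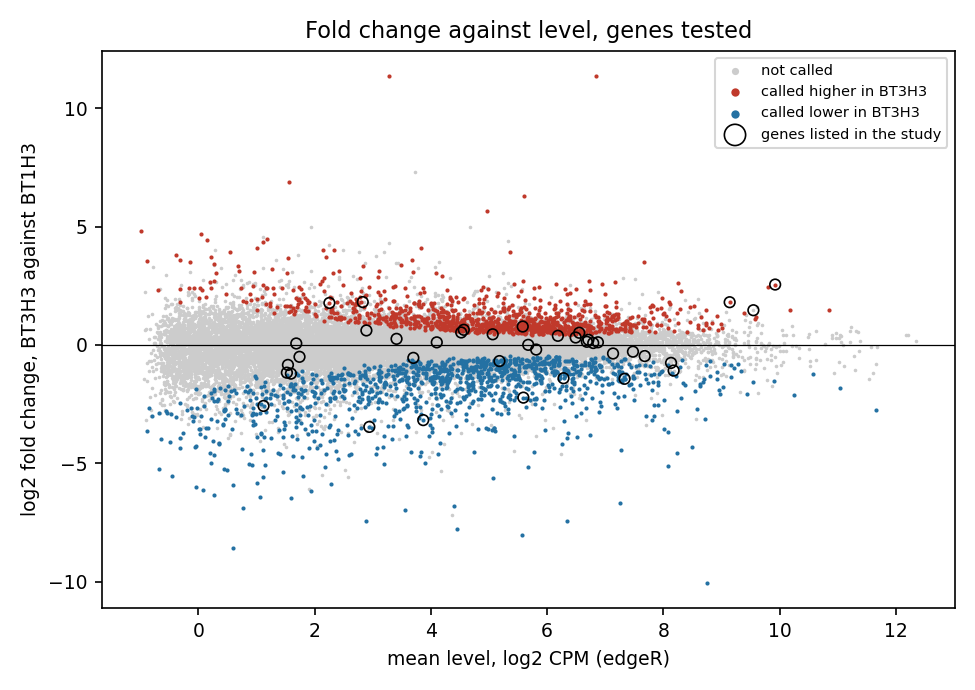
Log2 fold change of BT3H3 against BT1H3 (vertical axis) against the mean level as edgeR's log2 CPM (horizontal axis), 1 point per gene tested, with the 1110 genes called higher in red, the 1186 called lower in blue and the genes listed by the study ringed. The blue cloud reaches further from 0 than the red one, with 177 against 39 genes past a log2 fold change of 3.

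The 3 BT3H3 and 3 BT1H3 libraries did not overlap in CPM for any of the 2296 DEGs, and they did not overlap for 8609 of the genes tested (38.1%) in all. The count of DEGs rested strongly on single libraries. Without BT1H3 replicate 1 it was 32 (1 higher and 31 lower), without BT1H3 replicate 2 it was 800 (216 and 584), and without BT1H3 replicate 3 it was 216 (44 and 172). Leaving out BT3H3 replicate 1 gave 376 DEGs (136 higher and 240 lower), leaving out replicate 2 gave 961 (389 and 572), and leaving out replicate 3 gave 3126 (1414 and 1712). The near balance of higher and lower genes with all 6 libraries was thus not kept in the smaller of these counts, where most genes were lower.

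**Figure D2:**
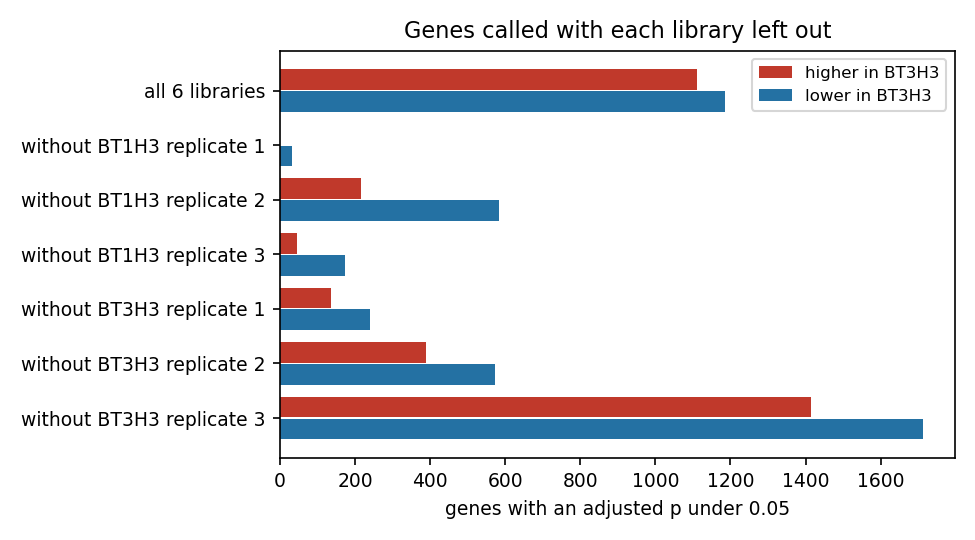
Number of genes called higher (red) and lower (blue) in BT3H3 (horizontal axis) with all 6 libraries and with each library left out (rows). The total falls from 2296 to 32 without BT1H3 replicate 1 and rises to 3126 without BT3H3 replicate 3.

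The gene with the smallest p of all was BGIOSGA014122, a polyamine oxidase. Polyamine oxidases break down polyamines such as spermidine and spermine and release hydrogen peroxide. Its transcript stood at 74.6, 83.2 and 76.6 CPM in replicates 1, 2 and 3 of BT1H3 and at 17.9, 17.7 and 15.9 CPM in those of BT3H3. The replicates of either group lay close together and the groups were far apart, with a 4.69-fold lower level and a log2 fold change of -2.23 (SE 0.12, adjusted p = 0.00733). This gene was called in all 6 fits that left out a library. The uncooled control of the line, BCK, held 139, 196 and 131 CPM, above every library of both recovery groups. Against BCK the log2 fold change was -3.43 (SE 0.23, adjusted p = 0.0133) in BT3H3 and -1.25 (SE 0.21, adjusted p = 0.0565) in BT1H3, and these comparisons share the BCK libraries. At the first recovery day the values were 44.1, 79.6 and 134 CPM after 1 day of cold (BT1H1) and 24.4, 27.6 and 33.0 CPM after 3 days (BT3H1), and these groups did not overlap either. The other polyamine oxidase in the study's text, BGIOSGA014319, was not called, at 233, 178 and 165 CPM in BT1H3 and 152, 156 and 179 CPM in BT3H3, with a log2 fold change of -0.29 (SE 0.18, adjusted p = 0.333). Glutamate decarboxylase BGIOSGA012193, which makes the amino acid GABA from glutamate, stood at 19.9, 16.3 and 9.01 CPM against 20.02, 8.07 and 3.94 CPM, with a log2 fold change of -0.55 (SE 0.58, adjusted p = 0.565), and the groups overlapped. Of the 3 genes of polyamine and GABA metabolism, 1 was lower and none higher, beside 5.24% and 4.91% of all genes tested. Their median log2 fold change was -0.55. The study names BGIOSGA014122 as down in recovery from 3 days of cold, on samples that include BT3H3.

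Of 6 transcription factors that the study's text gives with an identifier, both members of the MYB family rose. The study names both for presumed very high levels during the recovery of DC907 from 3 days of cold. That recovery includes the BT3H3 libraries, so their rise here is not independent of the choice. MYB proteins bind DNA through repeated helical domains and control, among others, stress and secondary metabolism genes in plants. BGIOSGA005283 was read at 313, 222 and 300.0 CPM in BT1H3 and at 2472, 1629 and 969 CPM in BT3H3. All BT3H3 libraries were above all BT1H3 libraries and also above every library of the other 5 DC907 groups, and the replicates of BT3H3 were themselves more than 2-fold apart. The level was 5.85-fold higher, with a log2 fold change of 2.55 (SE 0.37, adjusted p = 0.0156). The call was lost without BT1H3 replicates 1 or 3 (adjusted p = 0.0664 to 0.0694), and with all 21 DC907 libraries in 1 fit (adjusted p = 0.0575) and all 36 libraries in 1 fit (adjusted p = 0.0763). Uncooled plants held 89.9, 109 and 199 CPM and plants at the end of 3 days of cold (BT3) 7.82, 0.775 and 1.20 CPM, so that this transcript was lowest in BT3 and highest on the third day of recovery from it.

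The second MYB gene, BGIOSGA019054, had the same order of groups at the extremes. It stood at 253, 227 and 263 CPM in BT1H3 against 1277, 1007 and 401 CPM in BT3H3, and the lowest BT3H3 library, replicate 3, was still above the highest of BT1H3. The log2 fold change was 1.80 (SE 0.40, adjusted p = 0.0401). The call was lost without BT1H3 replicates 1, 2 or 3 or BT3H3 replicates 1 or 2 (adjusted p = 0.0925 to 0.134), and with all 36 libraries in 1 fit (adjusted p = 0.0541). Without BT3H3 replicate 3 the log2 fold change was 2.13 (adjusted p = 0.0123). In BCK this gene was read at 78.6, 141 and 128 CPM and in BT3 at 12.4, 8.11 and 9.03 CPM. Against BCK the log2 fold change was 2.69 (SE 0.49, adjusted p = 0.0226) in BT3H3 and 0.85 (SE 0.25, adjusted p = 0.0929) in BT1H3, again with the BCK libraries shared.

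The other 4 transcription factors given with an identifier were not called with all 6 libraries. The NAC gene BGIOSGA001951 had non-overlapping groups, at 229, 249 and 226 CPM against 169, 151 and 201 CPM, and a log2 fold change of -0.47 (SE 0.16, adjusted p = 0.101). Without BT3H3 replicate 3, edgeR called the NAC gene lower, at -0.62 (adjusted p = 0.0359). The zinc finger gene of the C3H class, BGIOSGA004750, also had groups that did not overlap, at 19.1, 18.99 and 17.3 CPM against 27.8, 23.9 and 30.1 CPM, with a log2 fold change of 0.52 (SE 0.15, adjusted p = 0.0745). For the LOB gene BGIOSGA010454 and the AP2 gene BGIOSGA029415 the libraries overlapped, and the log2 fold changes were 0.61 and 0.13 with adjusted p of 0.407 and 0.904. Of the 6 genes, 2 were higher and none lower, beside 4.91% higher and 5.24% lower among all genes tested. Their median log2 fold change was 0.57, beside 0.01 for all genes tested, and the 2 called are the MYB genes.

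**Figure D3:**
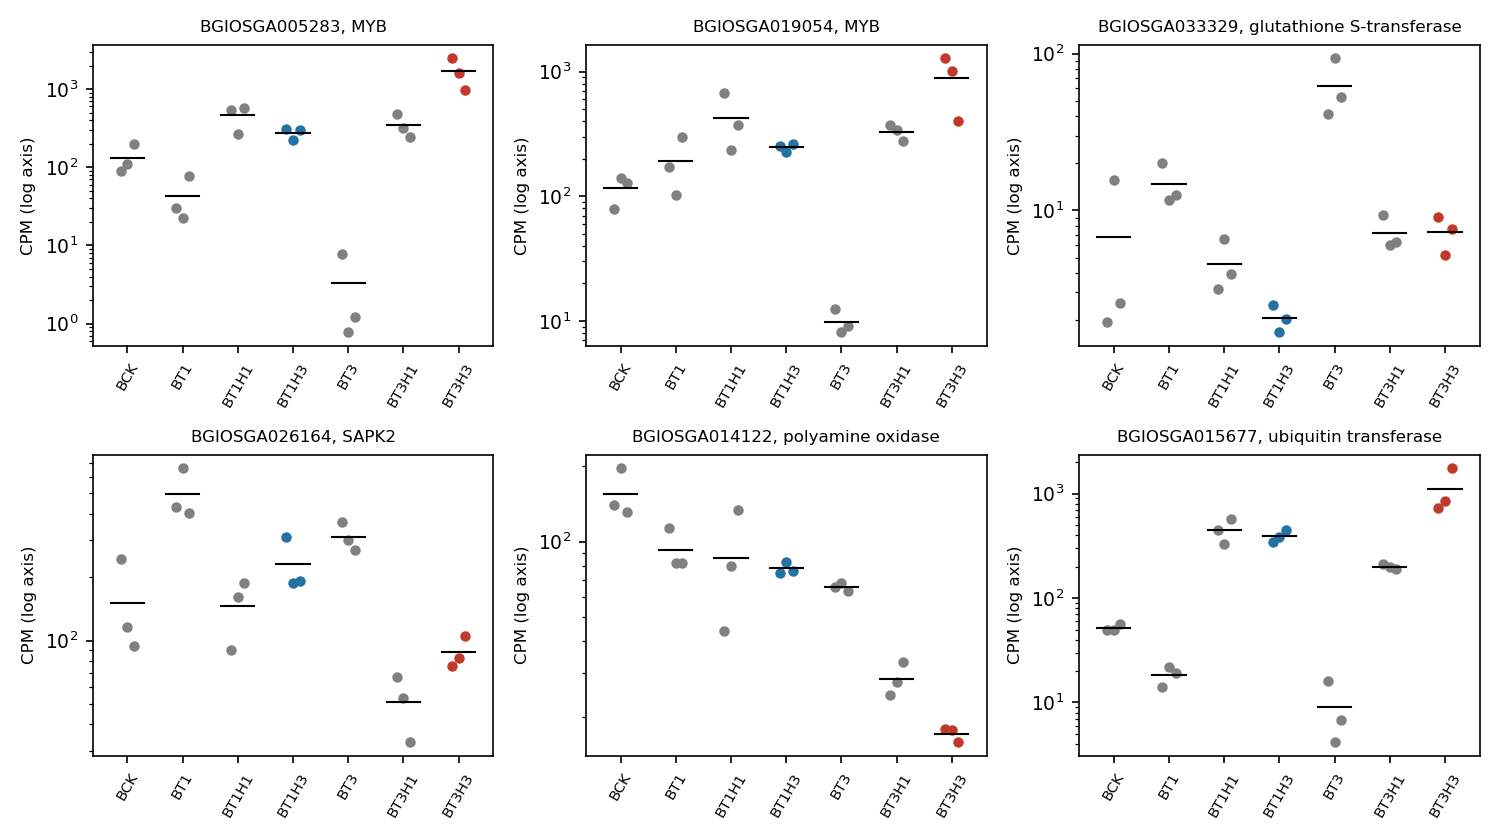
CPM on a log axis (vertical) of 6 genes in the 7 DC907 groups (horizontal), 1 point per library with the mean as a line, BT1H3 in blue and BT3H3 in red. Both MYB genes and the ubiquitin transferase gene are highest in BT3H3 and lowest in BT3, and the polyamine oxidase gene is lowest in BT3H3 at 15.9 to 17.9 CPM.

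Among genes of the removal of reactive oxygen species, 1 of 4 was higher and none lower, beside 4.91% and 5.24% of all genes tested. Glutathione S-transferases join glutathione to toxic compounds, and BGIOSGA033329 of this family stood at 2.50, 1.67 and 2.02 CPM in BT1H3 and 9.02, 5.22 and 7.61 CPM in BT3H3. The groups did not overlap, and the level was 3.41-fold higher, with a log2 fold change of 1.77 (SE 0.32, adjusted p = 0.0245). The call was lost without BT1H3 replicates 1, 2 or 3 or BT3H3 replicate 1 (adjusted p = 0.0699 to 0.0975), and with all 21 DC907 libraries in 1 fit (adjusted p = 0.0869) and all 36 libraries in 1 fit (adjusted p = 0.131). The cold groups were higher than both recovery groups, at 20.1, 11.7 and 12.5 CPM in BT1 (1 day at 8 ℃) and 41.4, 93.2 and 52.7 CPM in BT3, and BCK spread from 1.95 to 15.7 CPM. A second glutathione S-transferase, BGIOSGA001631, had groups that did not overlap, at 22.8, 15.5 and 16.1 CPM against 26.7, 32.4 and 28.1 CPM, but was not called (adjusted p = 0.0929). Glutathione peroxidase BGIOSGA016904, which reduces peroxides with glutathione, and monodehydroascorbate reductase BGIOSGA029182, which regenerates ascorbate, overlapped between the groups. Their log2 fold changes were 0.08 (SE 0.21) and 0.00 (SE 0.14), and BGIOSGA029182 stood at 49.0, 50.5 and 51.0 CPM in BT1H3 and 59.5, 53.4 and 42.5 CPM in BT3H3. In BT3 this gene had reached 941, 1152 and 1020.2 CPM.

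Abscisic acid is made from carotenoids by 9-cis-epoxycarotenoid dioxygenase (NCED), is inactivated by CYP707A hydroxylases and acts through protein kinases such as SAPK2. SAPK2 (BGIOSGA026164) was lower in BT3H3. It stood at 312, 188 and 192 CPM in BT1H3 and 75.9, 82.5 and 106 CPM in BT3H3, without overlap, and replicate 1 was the highest of BT1H3. The level was 2.70-fold lower, with a log2 fold change of -1.43 (SE 0.26, adjusted p = 0.0250). The call was lost without BT1H3 replicates 1 or 3 or BT3H3 replicates 1 or 2 (adjusted p = 0.0676 to 0.0829), and with all 21 DC907 libraries in 1 fit (adjusted p = 0.0802) and all 36 libraries in 1 fit (adjusted p = 0.0808). BCK held 244, 116 and 93.9 CPM, which spans the gap between the 2 recovery groups, and BT3H1 held 67.3, 53.7 and 33.0 CPM. Of the other members of the list, NCED BGIOSGA013244 had non-overlapping groups, at 27.2, 26.7 and 29.3 CPM against 37.7, 32.9 and 46.0 CPM, with a log2 fold change of 0.45 (SE 0.17, adjusted p = 0.134). NCED BGIOSGA025169 varied within BT3H3 from 0.124 to 6.33 CPM and CYP707A7 (BGIOSGA029635) within BT1H3 from 1.61 to 5.37 CPM, and both overlapped between the groups. In all, 1 of 4 tested genes was lower and none higher, beside 5.24% and 4.91% of all genes tested. The median log2 fold change of the 4 was -0.84. Another NCED identifier of the study's text was not analysed here.

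Genes of other hormones gave no call among the 3 that could be tested, by edgeR or DESeq2 with all 6 libraries. The flavin-containing monooxygenase gene BGIOSGA015673, an enzyme class of auxin synthesis, and the ethylene-response sensors BGIOSGA009308 and BGIOSGA009973, which are ethylene receptors, had log2 fold changes of 0.06, -0.20 and 0.11. The libraries of the groups overlapped for each of them. Of the sensors, BGIOSGA009308 ranged from 57.3 to 60.3 CPM in BT1H3 and from 28.6 to 87.2 CPM in BT3H3. Lipoxygenase BGIOSGA037588, of the enzyme class that starts jasmonate synthesis, was too low to test, with 5, 4 and 9 counts in BT1H3 and 0 counts in every BT3H3 library. Cytokinin oxidase CKX8 (BGIOSGA016782), which degrades cytokinins, was also too low, with 1, 6 and 7 counts in BT1H3 and 2, 4 and 2 in BT3H3.

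Sugar genes gave no call among 4 by edgeR, while DESeq2 called trehalase. Trehalase BGIOSGA031535, which splits the disaccharide trehalose into glucose, stood at 2.68, 2.99 and 3.46 CPM in BT1H3 and 4.04, 6.68 and 21.8 CPM in BT3H3. The groups did not overlap, but replicate 3 of BT3H3 lay far above the others. The log2 fold change was 1.81 (SE 0.64, adjusted p = 0.115) with all libraries, 1.81 (adjusted p = 0.0256) by DESeq2 and 0.75 (adjusted p = 0.172) without that one. Amylases break down starch. The same library was the highest for amylase BGIOSGA011829, at 27.5, 33.7 and 119.7 CPM in BT3H3 against 53.0, 28.7 and 22.1 CPM in BT1H3, and the log2 fold change went from 0.77 (SE 0.63, adjusted p = 0.451) to -0.25 (adjusted p = 0.697) without it. Amylase BGIOSGA031385 stood at 98.1, 63.5 and 123 CPM against 102, 123 and 116 CPM, and amylase BGIOSGA028835 was between 0.106 and 5.83 CPM in the 6 libraries.

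Of 4 further genes, listed as candidate central genes of coexpression modules, none was called by edgeR, although the groups did not overlap for 3. Among all genes tested the groups did not overlap for 38.1%. The study took BGIOSGA015677, BGIOSGA021307 and BGIOSGA021806 from modules for which it reports a positive correlation with BT3H3. Among the 4, these are the genes without overlap, and all were higher in BT3H3, so their separation is not independent of that choice. Not every gene that the study ties to a BT3H3 module separated. The AP2 gene BGIOSGA029415, described above, is also placed in such a module by the study, and its groups overlapped. Its libraries held 162, 40.2 and 85.1 CPM in BT1H3 and 55.0, 87.8 and 181 CPM in BT3H3. BGIOSGA015677, a ubiquitin transferase, which marks proteins for breakdown, stood at 347, 384 and 446 CPM in BT1H3 and 725, 845 and 1750.2 CPM in BT3H3. Every BT3H3 library was above every BT1H3 library, and replicate 3 of BT3H3 was more than 2-fold above the other two. The log2 fold change was 1.46 (SE 0.37, adjusted p = 0.0547), 1.46 (adjusted p = 0.00140) by DESeq2 and 0.93 (adjusted p = 0.0312) by edgeR without that replicate. Uncooled plants held 49.0, 49.9 and 56.8 CPM, below both groups, and the log2 fold change against them was 4.15 (SE 0.49, adjusted p = 0.0156) in BT3H3 and 2.63 (SE 0.27, adjusted p = 0.0538) in BT1H3. The candidate genes BGIOSGA021307 and BGIOSGA021806, without a known product here, had log2 fold changes of 0.38 and 0.31 with adjusted p of 0.0892 and 0.134. The fourth, BGIOSGA002846, overlapped between the groups at 13.8, 18.5 and 16.3 CPM against 15.2, 18.2 and 20.2 CPM.

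Another list holds the 14 genes of the study's qPCR assays. Of these, edgeR called 5 lower in BT3H3 and none higher from the sequencing counts, with a median log2 fold change of -0.92. Among all genes tested 5.24% were lower and 4.91% higher, with a median of 0.01. The study does not say how it picked the 14 genes. DESeq2 also called BGIOSGA026730 higher and BGIOSGA013814 lower, at log2 fold changes of 0.50 (adjusted p = 0.0347) and -1.10 (adjusted p = 0.00247). SAPK2, described above, is one of the 5 that edgeR called lower. The primer pairs of these 5 genes are given 5′ to 3′ in lower case, since 4 of them have no product name here and the primers are the only sequence of these genes at hand. Their positions in the genome were not determined.
BGIOSGA012515 forward: acgcaagatgaaggacaccgactc
BGIOSGA012515 reverse: gcttctcgccgaggttggtcat
BGIOSGA014600 forward: agacggaggtggactgcgagtt
BGIOSGA014600 reverse: ttcatgtagaggtgcggcgagac
BGIOSGA016308 forward: cgctccgatgacgctcttctacaa
BGIOSGA016308 reverse: ttagttgcctcggttgccatcctc
BGIOSGA026164 (SAPK2) forward: gatgtgcggaccaaggagctgtt
BGIOSGA026164 (SAPK2) reverse: caatgttcggatgcctcagtgacct
BGIOSGA028653 forward: gcatcggcatcctcgtgtccaa
BGIOSGA028653 reverse: ccgcagcaagaactccatcacct

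The largest fall among the qPCR genes was that of BGIOSGA016308, from 18.4, 9.43 and 12.9 CPM in BT1H3 to 0.622, 2.79 and 0.426 CPM in BT3H3. The groups did not overlap, the level was 11.05-fold lower and the log2 fold change was -3.47 (SE 0.72, adjusted p = 0.0331). The call was lost without BT1H3 replicates 1, 2 or 3 or BT3H3 replicate 1 (adjusted p = 0.0628 to 0.115), and with all 21 DC907 libraries in 1 fit (adjusted p = 0.0602) and all 36 libraries in 1 fit (adjusted p = 0.109). This gene was at 0.474, 2.81 and 0.0558 CPM in BCK and at 40.6, 41.4 and 46.5 CPM in BT3, so that BT3H3 overlapped the uncooled plants and BT1H3 lay above them. BGIOSGA028653 fell from 38.4, 17.6 and 20.8 CPM to 4.23, 3.82 and 0.798 CPM, 9.06-fold, with a log2 fold change of -3.18 (SE 0.62, adjusted p = 0.0290). The groups did not overlap, and the call was lost without BT1H3 replicates 1, 2 or 3 or BT3H3 replicates 1 or 2 (adjusted p = 0.0540 to 0.103).

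BGIOSGA014600 was a low gene that fell from 3.69, 3.76 and 3.00 CPM to 0.933, 0.546 and 0.319 CPM, without overlap. Its log2 fold change was -2.58 (SE 0.45, adjusted p = 0.0220), and the call was lost without BT1H3 replicates 1, 2 or 3 or BT3H3 replicate 2 (adjusted p = 0.0604 to 0.0882). Against BCK, at 4.62, 5.38 and 8.43 CPM, the log2 fold change in BT3H3 was -3.63 (SE 0.55, adjusted p = 0.0175). The transcript of BGIOSGA012515 went from 123, 138 and 73.6 CPM in BT1H3 to 34.6, 41.3 and 52.9 CPM in BT3H3, with a log2 fold change of -1.41 (SE 0.27, adjusted p = 0.0283). The call was lost without BT1H3 replicates 1 or 2 or BT3H3 replicates 1 or 2 (adjusted p = 0.0741 to 0.104), and with all 21 DC907 libraries in 1 fit (adjusted p = 0.0664) and all 36 libraries in 1 fit (adjusted p = 0.151). Of the 9 qPCR genes that were not called, BGIOSGA013814 came closest, at 482, 319 and 357 CPM against 159, 255 and 149.6 CPM and an adjusted p of 0.0528. By edgeR it was called lower without BT3H3 replicate 2 (adjusted p = 0.0487) and with at least 10 counts in every library (adjusted p = 0.0465).

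**Figure D4:**
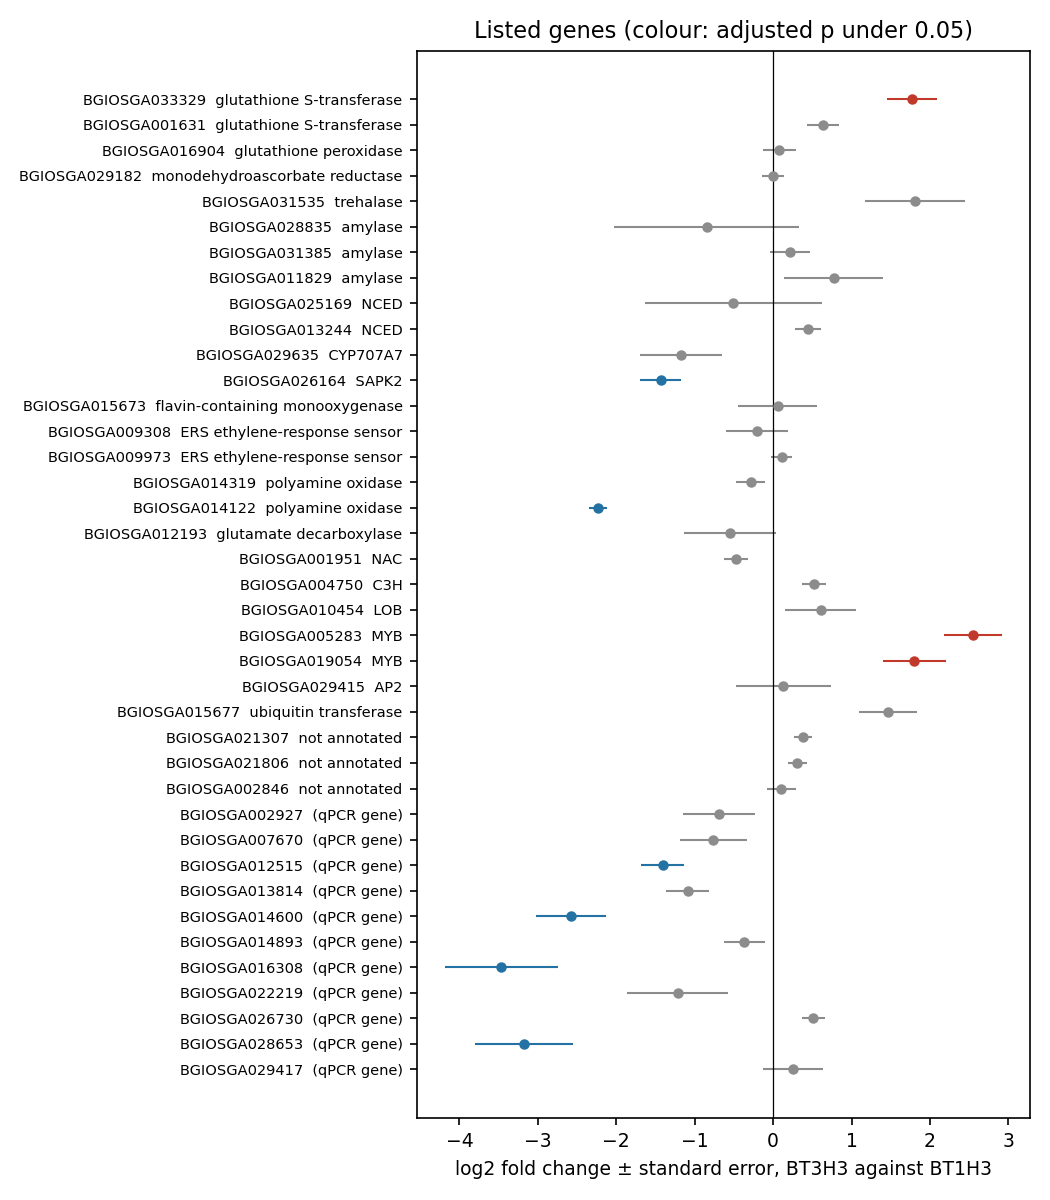
Log2 fold change of BT3H3 against BT1H3 with its standard error (horizontal axis) for the 39 tested genes that the study's text or primer list names (rows), with red for genes called higher and blue for genes called lower. The 3 red points are both MYB genes and a glutathione S-transferase, and the 6 blue points lie between -3.47 and -1.41.

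Over all 42 listed identifiers, 41 were in the count table, 39 could be tested, 3 were higher and 6 lower in BT3H3. The study chose these genes on samples that include the 6 libraries, so their count is not independent evidence of a direction. For comparison, 10.2% of all genes tested were called.

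By p alone, the strongest rises were those of BGIOSGA026224 and BGIOSGA024834, which the study's text does not name. BGIOSGA026224 stood at 21.8, 28.6 and 33.0 CPM in BT1H3 and 199.5, 150.5 and 204 CPM in BT3H3, with a log2 fold change of 2.69 (SE 0.21, adjusted p = 0.00745). It had been at 756, 1028 and 608 CPM in BT1 and at 74.5, 119.6 and 159 CPM in BT3, so that the order of the cold lengths was the other way round at the end of the cold, and in BCK it spread from 4.19 to 186 CPM. BGIOSGA024834 stood at 10.2, 8.30 and 12.2 CPM against 64.2, 51.0 and 45.5 CPM, with a log2 fold change of 2.34 (SE 0.21, adjusted p = 0.0102). BCK was at 57.2, 26.8 and 42.5 CPM, and the log2 fold change against it was 0.02 in BT3H3 and -2.37 in BT1H3, with adjusted p of 0.971 and 0.0565. Without BT1H3 replicate 1 its log2 fold change was 2.33 (adjusted p = 0.0535). Besides the polyamine oxidase, the fall with the smallest p was that of BGIOSGA002148, from 64.7, 51.0 and 53.1 CPM to 8.77, 8.38 and 9.63 CPM, with a log2 fold change of -2.70 (SE 0.17, adjusted p = 0.00745). Neither BGIOSGA026224 nor BGIOSGA002148 lost its call in a fit that left out a library. With all 36 libraries in 1 fit both lost it, at adjusted p of 0.0902 and 0.0543, and BGIOSGA026224 also lost it with all 21 DC907 libraries, at an adjusted p of 0.115.

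The uncooled plants give a level of the line without cold, from replicates that agreed less than those of BT1H3 and BT3H3. Between BCK replicates r was 0.771 to 0.837 in log2 CPM across genes, beside 0.900 to 0.966 in the 2 recovery groups. The places of BCK below are those of a mean over these unlike libraries. The day on which BCK was collected is not given in the sources used here, so seedling age may differ as well. In any comparison with BCK, age cannot be told apart from the treatment. Against BCK, 4095 of 22613 genes tested differed in BT3H3 (18.1%), of which 1894 were higher (8.38%) and 2201 lower (9.73%). Against the same BCK libraries 0 of 22923 differed in BT1H3 (0%) by edgeR, although 6968 genes had an unadjusted p under 0.05 and DESeq2 called 5273. The count for BT3H3 was 0 without BT3H3 replicate 1, 4 without replicate 2, 0 without replicate 3 and 2235 without BCK replicate 3, and that for BT1H3 was 3119 without BCK replicate 2 and 943 without BCK replicate 1. Among the 1110 genes higher in BT3H3 than in BT1H3, the mean of BCK was below both groups for 794 (71.5%), between them for 283 (25.5%) and above both for 33 (2.97%). Among the 1186 lower genes it was below both for 224 (18.9%), between them for 545 (46.0%) and above both for 417 (35.2%). BCK was nearer to BT1H3 than to BT3H3 for 1007 of the higher genes (90.7%) and for 708 of the lower genes (59.7%). These places of BCK were not counted over all genes tested, so the shares have no background beside them.

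The genes called higher took 9.15% to 10.5% of the counts of a BT3H3 library and 4.27% to 4.73% of a BT1H3 library, a difference that the choice of the genes fixes. In groups that did not choose the genes, they took 3.31% to 3.93% in BCK, 4.13% to 4.92% in BT3 and 4.03% to 4.06% in BT1. On the first recovery day they took 6.58% to 7.48% in BT3H1 and 5.68% to 6.84% in BT1H1. Both first-day recovery groups were thus above BCK and both cold groups, and below BT3H3. The genes called lower took 9.33% to 10.9% of a BT1H3 library and 3.33% to 3.90% of a BT3H3 library. They took 9.87% to 14.2% in BCK, 5.01% to 6.88% in BT1H1 and 4.74% to 5.26% in BT3H1, so that the share in BCK overlapped that in BT1H3 and the first-day recovery groups held a smaller one.

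**Figure D5:**
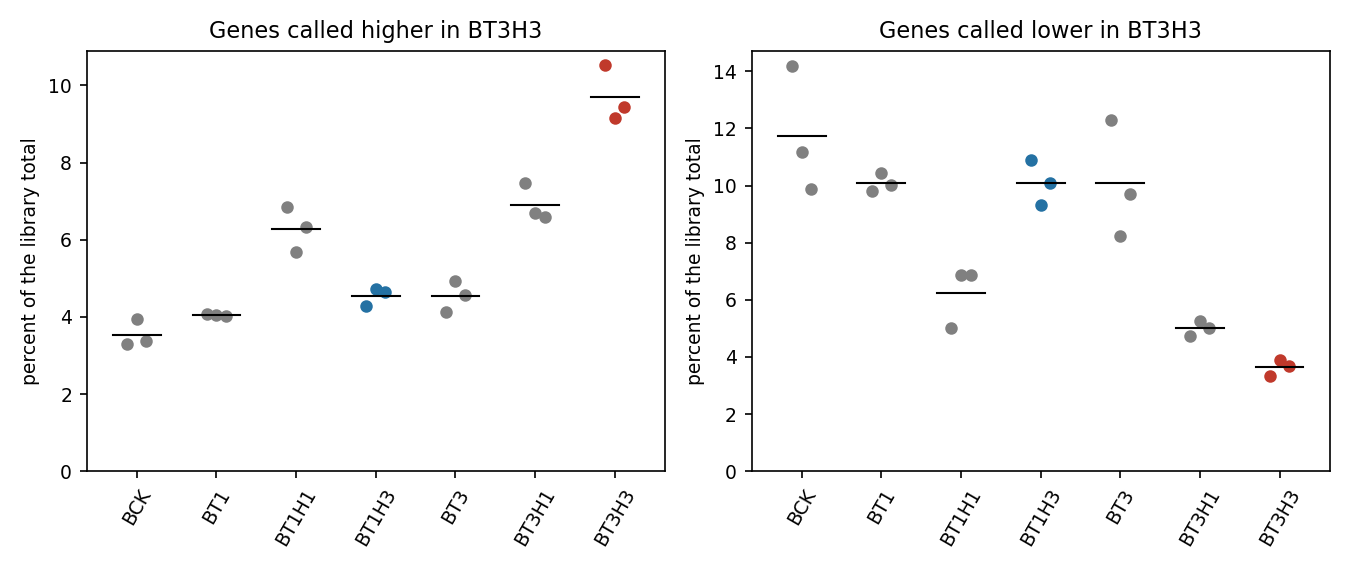
Percent of a library's counts on the 1110 genes called higher (left) and the 1186 called lower (right) in BT3H3 (vertical axes from 0) in the 7 DC907 groups (horizontal), 1 point per library with the mean as a line. Outside the 2 groups that chose the genes, the share of the higher genes is largest in BT3H1 at 6.58% to 7.48%, and that of the lower genes smallest in BT3H1 at 4.74% to 5.26%.

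The place of BT3H3 among the 7 groups is given as a description, since the genes were chosen for being higher or lower in it than in BT1H3. BT3H3 was the group with the highest mean of the 7 DC907 groups for 762 of the 1110 higher genes (68.6%), and BT3 for 127 (11.4%) and BT3H1 for 108 (9.73%). Over all genes tested BT3H3 was the highest group for 17.1%, BT3 for 16.7% and BT3H1 for 17.2%. The lowest group of the higher genes was BT1 for 372 (33.5%), BT3 for 333 (30.0%) and BCK for 297 (26.8%). Over all genes tested these groups were the lowest for 29.6%, 24.4% and 21.8%, which is close to those shares. Of the 1186 lower genes, 624 (52.6%) had their lowest mean in BT3H3, beside 12.1% of all genes tested. Their highest mean was in BT1H3 for 298 (25.1%), in BT3 for 259 (21.8%), in BCK for 254 (21.4%) and in BT1 for 235 (19.8%). Over all genes tested it was in BT1H3 for 6.22%, in BT3 for 16.7%, in BCK for 14.6% and in BT1 for 14.7%. Each library of the other groups was also placed by which of the 2 recovery means it was nearer to, on log2 of the CPM plus 1. The libraries of BT3H1 were nearer to BT3H3 for 48.6% to 56.3% of the DEGs, and those of BT1H1 for 31.0% to 52.6%. The corresponding shares were 28.2% to 35.3% for BT3, 28.1% to 30.7% for BT1 and 20.99% to 32.5% for BCK.

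Whether the effect of the cold length was another one on the third than on the first recovery day was tested as an interaction in the 12 libraries of BT3H3, BT1H3, BT3H1 and BT1H1. It differed for 1157 of 24479 genes (4.73%), with 618 shifted up (2.52%) and 539 down (2.2%) on the third day. The MYB gene BGIOSGA005283 was among them. On the first day it stood at 547, 267 and 572 CPM in BT1H1 and 483, 319 and 246 CPM in BT3H1, which overlap, and the difference of the 2 effects was 3.05 (SE 0.57, adjusted p = 0.0223) on the log2 scale. The ubiquitin transferase BGIOSGA015677 was lower after the longer cold on the first day, at 453, 331 and 576 CPM in BT1H1 and 213, 198 and 188 CPM in BT3H1, and higher on the third, with a difference of 2.75 (SE 0.49, adjusted p = 0.0196). For the polyamine oxidase BGIOSGA014122 the interaction was not called, with -0.53 (SE 0.47, adjusted p = 0.537). SAPK2, with 0.18 (SE 0.48, adjusted p = 0.861), was not called in it either.

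The smallest p of this interaction belonged to genes without a product in the study's text. BGIOSGA014430 and BGIOSGA023719 shifted up by 2.07 and 3.34. BGIOSGA014430 stood at 401, 378 and 379 CPM in BT1H1 and 181, 202 and 172 CPM in BT3H1 on the first day, and at 266, 299 and 299.7 CPM in BT1H3 and 577, 629.9 and 484 CPM in BT3H3 on the third, so that the order of the cold lengths turned round. BGIOSGA017551 and BGIOSGA000237 shifted down. BGIOSGA017551 stood at 16.0, 18.1 and 12.5 CPM in BT1H1 and 26.7, 29.8 and 43.0 CPM in BT3H1, then at 197, 152 and 77.8 CPM in BT1H3 and 8.33, 8.74 and 6.97 CPM in BT3H3, with a difference of -5.23 (SE 0.46, adjusted p = 0.00345). Its level was thus higher on the third than on the first day after the short cold, and lower after the long cold. The count of 1157 was 125 without BT1H3 replicate 1, 1303 without BT1H1 replicate 2, and between 253 and 742 without any other of the 12 libraries. It was 20 with all 36 libraries in 1 fit.

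The effect of the cold length also differed between the third recovery day and the end of the cold itself, where BT3 and BT1 were compared, for 4252 of 24932 genes (17.1%), 2155 shifted up (8.64%) and 2097 down (8.41%). The MYB genes shifted most among the named genes that rose. BGIOSGA019054 was at 171, 102 and 299 CPM in BT1 and 12.4, 8.11 and 9.03 CPM in BT3, lower after the longer cold, and higher after it on the third recovery day, with a difference of 6.16 (SE 0.66, adjusted p = 0.000498). For BGIOSGA005283 the difference was 6.27 (SE 1.15, adjusted p = 0.00553). The polyamine oxidase BGIOSGA014122 stood at 114, 82.3 and 81.8 CPM in BT1 and 65.8, 68.1 and 63.5 CPM in BT3, a smaller gap than on the third recovery day, and the difference was -1.59 (SE 0.24, adjusted p = 0.00256). The qPCR gene BGIOSGA016308 was higher after the longer cold, at 40.6, 41.4 and 46.5 CPM in BT3 against 2.85, 5.49 and 0.786 CPM in BT1, and lower after it in recovery, with a difference of -7.08 (SE 1.06, adjusted p = 0.00220). The count of 4252 fell to 2443 without BT1H3 replicate 1, to 2476 without BT1H3 replicate 3, to 2510 without BT3 replicate 3 and to 2826 without BT3H3 replicate 1.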

How the data were processed

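The 3 BT3H3 and 3 BT1H3 libraries, grouped by their labels, were compared, with BCK, BT1, BT1H1, BT3 and BT3H1 of the same line (3 libraries each) for context. Reads had been aligned to an indica genome by HISAT2, new genes had come from Cufflinks and Cuffcompare, and the authors deposited raw counts and FPKM of 43254 genes, 2509 of them new. The deposited FPKM were the counts divided by gene length and by the library's count total, to within 1.19e-07. The counting program, strand setting and handling of multiply mapped reads are not given in the sources used here, so reads of near-identical or overlapping genes may be split between them. Tests ran on the raw counts with edgeR 4.0.16 in R 4.3.3 (TMM, filterByExpr, robust glmQLFit, glmQLFTest, Benjamini-Hochberg, adjusted p under 0.05), with group as the only term. A standard error (SE) is the log2 fold change over the root of the F statistic. CPM are counts scaled to a library total of 1000000, and 1 count was 0.0532 to 0.0622 CPM. FPKM served only for levels and for a floor of 1 on genes named by p. As alternatives, DESeq2 1.42.0, size factors by median ratios, other filters, larger fits, a block for the replicate number, a minimum log2 fold change of 1 and fits without each library were run. The code was tested on simulated counts. Named genes were those identified in the study's text or primer list and, per test, the 2 of smallest p in each direction. The members and lists were chosen with earlier results of these data known. The table of gene names at hand is of japonica rice and held none of the identifiers, so no positions are given. The libraries of 9311 entered only the marker check and the fits of all 36.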

Additional observations from a re-analysis of the deposited data

Results flagged for a closer look

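For 9 of the named genes the effect of the cold length on the third recovery day differed from that on the first recovery day. This is by edgeR's test of the difference itself (adjusted p = 0.00345 to 0.0476), which called 4.73% of all genes tested. The count is no independent support. BGIOSGA014430, BGIOSGA023719, BGIOSGA017551 and BGIOSGA000237 were picked for their small p in this same test. BGIOSGA024834, BGIOSGA002148 and BGIOSGA026973 were picked in tests that share the BT3H3 and BT1H3 libraries. Against the first recovery day the difference on the log2 scale was 3.05 for the MYB gene BGIOSGA005283 and 2.75 for the ubiquitin transferase BGIOSGA015677. Among genes picked by p it was 2.07 for BGIOSGA014430, 3.34 for BGIOSGA023719, -5.23 for BGIOSGA017551 and -2.46 for BGIOSGA000237. Of the genes picked by p in the other comparisons, BGIOSGA024834 (1.83), BGIOSGA002148 (-1.95) and BGIOSGA026973 (1.20) also passed.

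Against the end of the cold the same test was passed by 28 of the named genes (adjusted p = 4.20e-05 to 0.0417). Among all genes tested 17.1% passed. The count is again no independent support. BGIOSGA026973, BGIOSGA017250, BGIOSGA028873 and BGIOSGA020185 were picked for their small p in this same test. The genes picked in the other comparisons came from tests that share the BT3H3 and BT1H3 libraries. Differences above 0 on the log2 scale, meaning that the longer cold went with a relatively higher level in late recovery than in the cold, were 6.27 and 6.16 for the MYB genes BGIOSGA005283 and BGIOSGA019054, 2.93 for the flavin-containing monooxygenase BGIOSGA015673 and 2.74 for amylase BGIOSGA031385. They were 2.58 for the ubiquitin transferase BGIOSGA015677, 1.95 for NCED BGIOSGA013244 and 1.58 for the ethylene-response sensor BGIOSGA009973. The qPCR gene BGIOSGA002927 had 3.65, and BGIOSGA026973 and BGIOSGA017250, picked by p, had 2.85 and 3.97. A gene could pass this test without a call on the third recovery day itself. BGIOSGA015673 and BGIOSGA031385 had log2 fold changes of 0.06 and 0.21 there (adjusted p = 0.949 and 0.616 by edgeR). Their means were 51.4 and 344 CPM in BT1 and 8.02 and 64.1 CPM in BT3. Differences below 0 were -1.43 and -1.59 for the polyamine oxidases BGIOSGA014319 and BGIOSGA014122, -1.64 for the C3H gene BGIOSGA004750, -1.89 for the candidate central gene BGIOSGA002846 and -7.18 for CKX8 (BGIOSGA016782). CKX8 had at most 7 counts in any library of the 2 late recovery groups, and stood at 18.1, 7.16 and 13.1 CPM in BT3. Among the qPCR genes the values were -7.08 for BGIOSGA016308, -4.75 for BGIOSGA026730, -3.14 for BGIOSGA022219, -2.37 for BGIOSGA028653, -1.52 for BGIOSGA014893 and -1.30 for BGIOSGA012515. BGIOSGA028873 and BGIOSGA020185, picked by p, had -4.36 and -10.35. BGIOSGA020185 had 1, 1 and 1 counts in the BT1 libraries, so that the size of its difference rests on very low counts. Genes picked by p in the other comparisons had 5.64 (BGIOSGA026224), 3.96 (BGIOSGA014430), 3.66 (BGIOSGA024834), -4.14 (BGIOSGA017551) and -2.68 (BGIOSGA002148).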

How the results depend on the processing

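For BT3H3 against BT1H3, DESeq2 called 4501 genes, which include 2295 of the 2296 DEGs, a log2 fold change of at least 1 left 1442, all 21 DC907 libraries in 1 fit gave 858 and all 36 gave 435. Size factors by median ratios (2180), testing without the filter (1954) and at least 10 counts in every library (2273) moved the count by less than 1.5 times. Same-numbered replicates of the 2 groups deviated together with r = -0.13, 0.16 and 0.11 across genes, and 1 of 3 correlated best with its own number, so that the numbers were not taken as pairs. In the interaction libraries r was over 0.1 at every number for BT3H3 with BT1H1 (0.19, 0.15 and 0.37) and for BT1H3 with BT3H1 (0.22, 0.13 and 0.26), but down to -0.37 for other pairs of groups. The fit with a block for the replicate number called 694 genes (225 higher and 469 lower), and against BCK it called 0 genes in BT3H3 (6446 at an unadjusted p under 0.05) and 0 in BT1H3 (5511). It called 773 genes for the shift from the first recovery day and 3110 for the shift from the cold. Under it BGIOSGA012515, BGIOSGA014600, BGIOSGA016308, BGIOSGA019054, BGIOSGA026164 and BGIOSGA028653 were not called (adjusted p = 0.0515 to 0.0893). Leaving out 1 library gave 32 to 3126 DEGs, 125 to 1303 for the shift from the first recovery day, 2443 to 5480 for the shift from the cold, 0 to 4115 for BT3H3 against BCK and 0 to 3119 for BT1H3 against BCK. DESeq2 called 3116 genes for the shift from the first recovery day, 7460 for BT3H3 against BCK and 5273 for BT1H3 against BCK, and all 36 libraries in 1 fit called 20 and 2597 for the shifts from the first recovery day and from the cold. On DEGs of at least 2-fold, the mean share on which BT1 was nearer to BT3H3 was 32.1% in place of 29.8%, and with 83 cultivar markers BT3H3 lay on the DC907 side at 96.0% in place of 97.0%. The cause of these shifts was not tested. Signs turned only for genes that were not called. Monodehydroascorbate reductase BGIOSGA029182 had log2 fold changes of -0.00819 with DESeq2, -0.0114 with size factors by median ratios, -0.0310 with at least 10 counts, -0.00240 with all 21 DC907 libraries and -0.00925 with the block. With 1 library left out it ranged from -0.10 to 0.10, BGIOSGA016904 from -0.14 to 0.21, BGIOSGA031385 from -0.0412 to 0.44, BGIOSGA011829 from -0.25 to 1.23, BGIOSGA025169 from -2.29 to 0.44, BGIOSGA015673 from -0.30 to 0.63, BGIOSGA009308 from -0.82 to 0.11, BGIOSGA029415 from -0.51 to 0.74, BGIOSGA002846 from -0.0214 to 0.22 and BGIOSGA029417 from -0.0239 to 0.70.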

Other observations

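Of the genes that the authors assembled as new, without an annotation, 97 of 1495 tested (6.49%) were called, beside 10.4% of the annotated genes, and the difference was not tested. Of the 97, 67 were higher and 30 lower in BT3H3. New genes took 2.75% to 3.07% of the counts of a BT3H3 library and 2.06% to 2.71% of a BT1H3 library, and these ranges do not overlap.

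The direction of the calls went with gene length and with level. The genes tested were cut into 4 groups of like size by length. Among the shortest (123 to 708 bases) 358 were higher in BT3H3 and 189 lower, and among the longest (1752 to 16296 bases) 143 were higher and 386 lower. The median log2 fold change of all genes tested was 0.15, 0.05, -0.01 and -0.11 from the shortest to the longest group. By the mean FPKM of the 6 libraries, 77 were higher and 225 lower in the lowest of 4 groups (up to 3.81 FPKM), and 580 were higher and 311 lower in the highest (from 36.5 FPKM). The part of length or level in the calls was not tested.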
